A study of Mus musculus with 2 samples.

Results

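Titin (Ttn) is described here through all 25 transcripts that the deposited annotation gives to this gene, of 141767 annotated transcripts in all, together with the gene's own total, 1 of 55536 annotated genes. Membership is set by gene name, and no measured value enters that rule. The RNA came from heart tissue of male B6CASTF1/J mice, a first-generation hybrid of the B6 and CAST strains, taken at an age of 10 days. Both libraries belong to 1 group, replicate 2 and replicate 1, and no treatment or genotype set them apart. Each was made from 300 ng of total RNA with ribosomal RNA reduced, strand kept and ERCC control RNAs added. The males carry separate numbers in the labels but 1 shared donor record, so the spread given here is that between these samples and may be technical.

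Titin is a giant protein of striated muscle that reaches from the Z-disc, where thin filaments are anchored, to the M-band in the middle of the sarcomere. Its I-band part acts as a molecular spring, and alternative splicing sets the length of that spring. In the heart the short N2B form skips most of the spring exons and is stiff, whereas the longer N2BA forms keep many of them and are more compliant. The N2A form of skeletal muscle also keeps them but lacks an exon unique to cardiac titin, the N2B exon. Rbm20 is the splicing repressor best known for keeping spring exons out of cardiac titin mRNA. A further short form, novex-3, ends in an exon of its own before the spring and does not reach the A-band.

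The gene lies on chromosome 2 (76703980 to 76982547, minus strand, mm10, which is GRCm38). The exons of its transcripts Ttn-201 to Ttn-205 merge into 348 exons, numbered here from the 5′ end, and the other transcripts were placed on these. The splice choices that tell the complete forms apart are given as transcript sequence from GENCODE M21, because the results turn on which of these joins a transcript holds. Lower case marks the last 20 bases of the upstream exon and capitals mark the first 20 bases of the exon that follows. All joins after exon 45 (chr2:76921551-76921607) share its last bases, as do those after exon 48 (chr2:76906254-76906532), and then they part.
Exon 45 into the N2B exon (Ttn-201 and Ttn-203): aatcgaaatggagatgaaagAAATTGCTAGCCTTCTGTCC
Exon 45 past the N2B exon into exon 48 (Ttn-204, Ttn-205 and Ttn-211): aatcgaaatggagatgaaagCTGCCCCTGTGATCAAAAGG
Exon 45 into the last exon of Ttn-202: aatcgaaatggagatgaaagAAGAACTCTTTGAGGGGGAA
Exon 48 past the middle stretch (Ttn-201): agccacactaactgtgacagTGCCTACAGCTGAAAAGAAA
Exon 48 into the middle stretch (Ttn-203, Ttn-204, Ttn-205 and Ttn-211): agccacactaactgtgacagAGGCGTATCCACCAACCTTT
The N2B exon is taken to be exon 47, of 2646 bases (chr2:76907308-76909953), from its place and size, since the files do not name it. The middle stretch (chr2:76821116-76903626), from exon 49 on, has 154 exons with 24972 bases in all, a multiple of 3. Its exons are short, with a median of 84 bases, and 85 of them have at most 90 bases. A further choice lies near the 5′ end, where exon 11, of 138 bases (chr2:76965777-76965914), is present in Ttn-203, Ttn-204, Ttn-205, Ttn-207 and Ttn-215 and absent from Ttn-201 and Ttn-202. Its joins are given here for the same reason.
Exon 10 past exon 11 (Ttn-201 and Ttn-202): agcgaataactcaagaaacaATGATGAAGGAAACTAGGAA
Exon 10 into exon 11 (the 5 transcripts that hold it): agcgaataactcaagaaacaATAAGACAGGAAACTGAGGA

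Ttn-201 has 192 exons and 81843 bases, holds the N2B exon and skips the whole middle stretch, which is the layout known as N2B. Ttn-204 (312 exons, 100404 bases) and Ttn-205 (313 exons, 101674 bases) lack the N2B exon and keep 121 of the 154 middle exons, the layout described for N2A, and they carry coding sequences of equal length (100401 bases). Ttn-203, with 347 exons and 106824 bases, holds the N2B exon and all 154 middle exons. Ttn-202 stops after 45 exons and 16891 bases in a last exon of 6520 bases (chr2:76913944-76920463), the layout of novex-3. Of the 25 transcripts 21 are annotated as protein coding, 3 as retained intron and 1 as processed transcript. Only 6 of the coding ones are annotated without an open end, and these include Ttn-225, with 4 exons and 300 bases, all of them coding. The other 15 are fragments with an open end, 14 of them open at both ends.

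**Figure D1:**
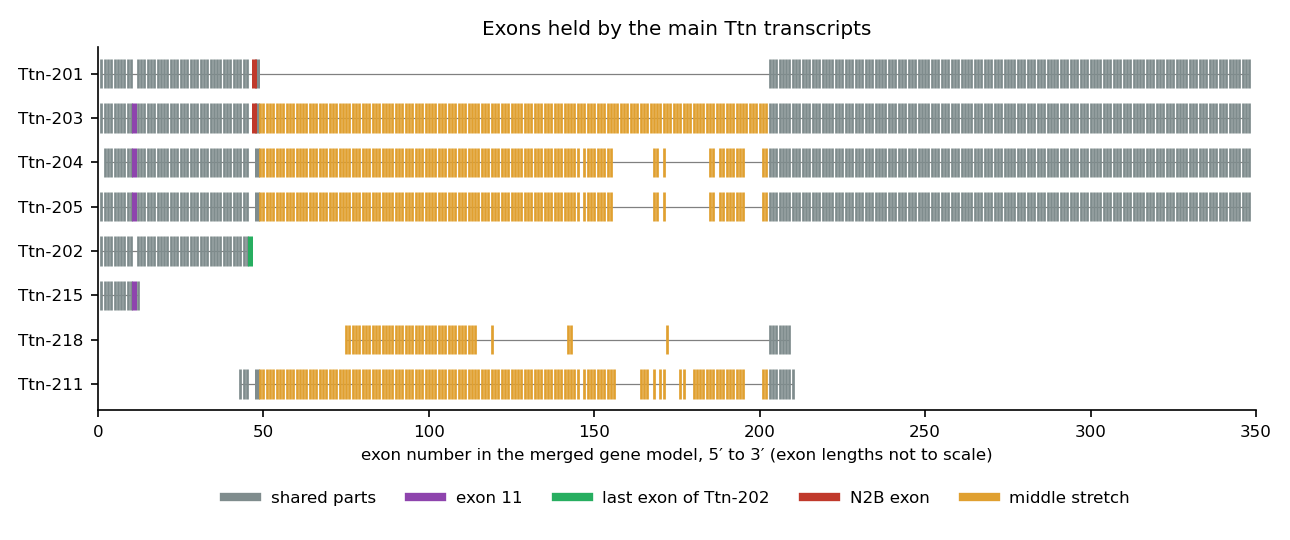
Exons held by 8 Ttn transcripts, with the exon number from 5′ to 3′ on the horizontal axis (exon lengths are not to scale) and 1 row for each transcript. Ttn-201 joins exon 48 to the 3′ part, whereas Ttn-203 holds all 154 exons of the middle stretch, Ttn-204 and Ttn-205 hold 121, and Ttn-218 starts inside it and holds 44.

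These transcripts share most of their sequence, and this limits how far reads can be assigned to them. Counted in words of 31 bases, Ttn-201 has 27 words found in no other transcript, Ttn-203 has 541, Ttn-204 has 34, Ttn-205 has 17 and Ttn-202 has 6518. Of the 25 transcripts 17 have fewer than 50 words of their own, and 7 of those have 0, among them Ttn-215. Pairs of forms differ by more, since 3960 words of Ttn-201 are absent from Ttn-204 and 22360 words of Ttn-204 are absent from Ttn-201. Levels are therefore given from both deposited quantifications: the first worked from transcriptome alignments, and the other took the reads directly.

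Ttn was among the genes with the most reads in this tissue. It took 1341329 expected counts in replicate 2 and 1027369 in replicate 1, of totals of 37907585 and 38851514. This was 3.54% of the counts in replicate 2 (exact 95% Clopper-Pearson interval 3.533% to 3.544%) and 2.64% in replicate 1 (2.639% to 2.649%), with a mean of 3.09% ± 0.632 (SD, n = 2). By counts it stood in place 3 of all genes in replicate 2 and place 4 in replicate 1, and in place 1 and place 2 of the protein-coding genes. Counting error is all that these intervals and the floor used later cover: without molecular identifiers the reads are not independent molecules, and the expected counts also carry the error of dividing reads among transcripts.

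Per length the gene ranked lower. On the TPM scale, which divides by length and sets every library to the same sum, Ttn was at 1101 TPM in replicate 2 and 944 TPM in replicate 1 (1023 ± 111). The other quantification gave 1259 TPM in replicate 2 and 1000 TPM in replicate 1 (1130 ± 183). In mean TPM Ttn came in place 39 of the protein-coding genes. Its neighbours above were the muscle creatine kinase Ckm (1215 and 1360 TPM in replicates 2 and 1), the translationally controlled protein gene Tpt1 (1184 and 1296 TPM) and Atp5g1 (1081 and 1239 TPM), which encodes a subunit of the ATP synthase. Below it came the glycolytic enzyme gene Aldoa (917 and 1090 TPM), Ndufa4 (934 and 1017 TPM) and the cytochrome oxidase subunit gene Cox6c (871 and 964 TPM). All 6 neighbours were lower in replicate 2 on the TPM scale, while Ttn was higher, and their spread between the libraries makes the order within this set uncertain. Aldoa, the neighbour with the most reads, had 41076 counts in replicate 2 and 45931 in replicate 1, against 1341329 and 1027369 for Ttn.

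Of the 25 transcripts, 15 reached 1 TPM in both libraries in the first quantification and 19 in the other, and 14 did so in both. Ttn-201, with the N2B layout, was the leading transcript. It stood at 432 TPM in replicate 2 and 344 TPM in replicate 1 (388 ± 62.3), and at 512 and 370 TPM in the other quantification (441 ± 101). Its share of the gene's TPM was 39.2% in replicate 2 and 36.4% in replicate 1, but its share of the gene's expected counts was 84.3% and 82.7%, where no length is divided out. Replicate 2 was the higher library for Ttn-201 on every one of these scales.

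The next transcripts by TPM were fragments. Ttn-215, which covers 12 exons at the 5′ end and holds exon 11, was at 324 TPM in replicate 2 and 277 TPM in replicate 1, with 29.4% of the gene's TPM in each but 1.59% and 1.68% of its expected counts. Ttn-218, with 51 exons from inside the middle stretch to the start of the 3′ part, was at 138 and 125 TPM. The other quantification put Ttn-215 at 221 TPM in replicate 2 and 183 TPM in replicate 1, and Ttn-218 at 167 and 137 TPM. The 15 fragments together held 48.8% of the gene's TPM in replicate 2 and 50.4% in replicate 1, against 5.39% and 5.95% of its expected counts. The 4 noncoding transcripts held 3.25% and 3.44% of the TPM, and Ttn-207, which retains an intron, led them in the first quantification at 13.9 TPM in replicate 2 and 13.0 TPM in replicate 1. In the other quantification the processed transcript Ttn-214 led them at 21.1 TPM in replicate 2 and 19.4 TPM in replicate 1.

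The novex-3 layout, Ttn-202, hardly differed in TPM, with 65.0 TPM in replicate 2 and 65.3 TPM in replicate 1. The other quantification gave 42.5 TPM in replicate 2 and 43.1 TPM in replicate 1. Among the 5 complete coding transcripts that reach exon 45 (Ttn-201 to Ttn-205) its share was 12.3% in replicate 2 and 15.0% in replicate 1 (13.7% ± 1.89), and 6.80% and 9.19% in the other quantification. The share was the lower one in replicate 2 in both quantifications, and the quantifications differed by more than the libraries did.

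The complete long forms with middle exons were low beside Ttn-201. Open-ended fragments that also hold middle exons are not counted among them. Of these, Ttn-218 was at 138 TPM in replicate 2 and 125 TPM in replicate 1 in the first quantification. In the first quantification Ttn-205 was at 17.4 TPM in replicate 2 and 15.7 TPM in replicate 1, Ttn-204 at 13.7 and 11.1 TPM, and Ttn-203 at 0.03 and 0 TPM. In the other quantification Ttn-204 was at 50.6 TPM in replicate 2 and 38.5 TPM in replicate 1, Ttn-203 at 19.7 and 17.7 TPM, and Ttn-205 at 0.03 TPM in both. The division among these 3 thus depended on the quantification. Their sum was 31.2 TPM in replicate 2 and 26.8 TPM in replicate 1 in the first quantification, against 70.3 and 56.3 TPM in the other.

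As a share of the 4 long coding transcripts, Ttn-203, Ttn-204 and Ttn-205 together made up 6.74% in replicate 2 and 7.23% in replicate 1 (6.98% ± 0.350), and 12.1% and 13.2% in the other quantification (12.6% ± 0.805). Ttn-201 made up the remainder, 93.3% in replicate 2 and 92.8% in replicate 1, or 87.9% and 86.8% in the other quantification. The share of the long forms was lower in replicate 2 in both quantifications, and Ttn-201 was the leading form in all 4 sets of values. Fragments that hold middle exons do not enter this share, so it does not cover all Ttn RNA with middle exons.

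**Figure D2:**
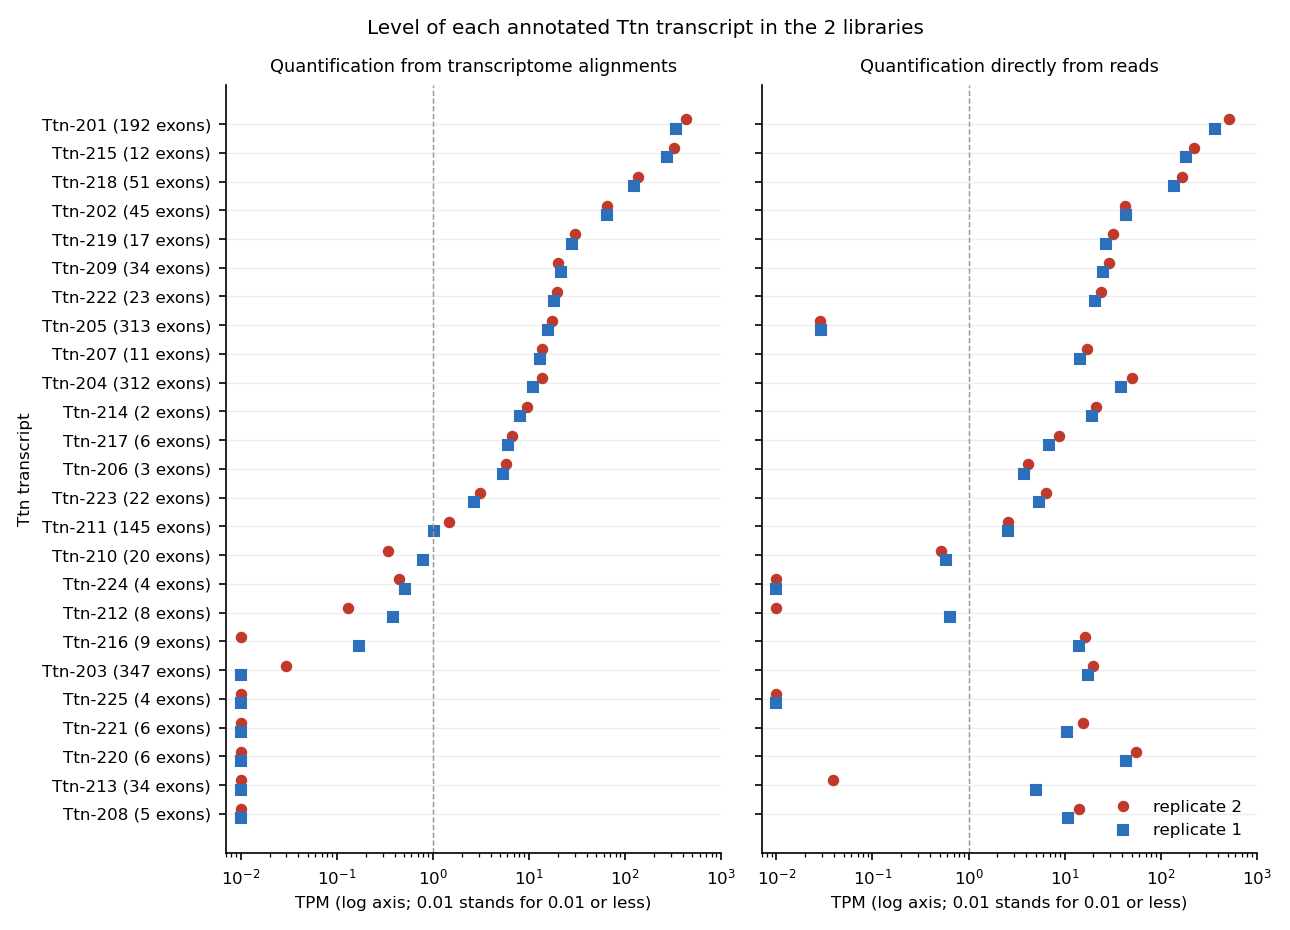
TPM of each of the 25 Ttn transcripts on a log axis, in replicate 2 (red circles) and replicate 1 (blue squares), with the quantification from transcriptome alignments on the left and the one directly from reads on the right; the dashed line marks 1 TPM. Ttn-201, Ttn-215 and Ttn-218 lead in both panels, while Ttn-203, Ttn-205, Ttn-208, Ttn-213, Ttn-216, Ttn-220 and Ttn-221 change place between them.

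The remaining transcripts are listed by range. Of the 16 transcripts with a mean of at least 50 counts, those not yet named lay between 1.02 TPM (Ttn-211 in replicate 1) and 30.6 TPM (Ttn-219 in replicate 2), and all of them reached 1 TPM in both quantifications. Ttn-208, Ttn-213, Ttn-220, Ttn-221 and Ttn-225 had 0 counts in both libraries in the first quantification. In the other quantification 4 of these 5 had counts, and Ttn-220, which has 0 words of its own, was at 55.0 TPM in replicate 2 and 43.8 TPM in replicate 1. Ttn-210, Ttn-212, Ttn-216 and Ttn-224 stayed under 1 TPM in the first quantification, while Ttn-216 was at 16.3 and 14.2 TPM in the other. Of the 15 transcripts at 1 TPM or more in both libraries, the deposited credibility bounds of TPM did not overlap between the libraries for 3 (Ttn-201, Ttn-215 and Ttn-218), where they did not for 20.3% of all 24554 transcripts at that level. These bounds need not contain the TPM given here. For Ttn-201 in replicate 2 they ran from 422 to 424 TPM, beside a level of 432 TPM.

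Inclusion of each exon was computed as the share of TPM held by transcripts with that exon among all transcripts that span its position, so that all levels are per length. The N2B exon was included at 93.0% in replicate 2 and 92.5% in replicate 1 (92.7% ± 0.326), and at 90.9% and 90.4% in the other quantification. The median exon of the middle stretch was included at 7.03% in replicate 2 and 7.49% in replicate 1 (7.26% ± 0.322), and at 12.5% and 13.7% in the other quantification (13.1% ± 0.900). Only Ttn-201, Ttn-203, Ttn-204, Ttn-205 and Ttn-211 span the N2B exon and the first exons of the middle stretch. With hardly any Ttn-203 in the first quantification, these inclusion values are nearly complements there and not separate results. Fragments that start inside the middle stretch enter neither of them. The last exon of Ttn-202 was used at 12.3% and 15.0%, or 6.77% and 9.14% in the other quantification. For these exons the change of quantification moved the value by more than the difference between the libraries.

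Of these splice choices, exon 11 had the largest gap between ways of summing. Over all transcripts that span it, inclusion was 42.6% in replicate 2 and 43.7% in replicate 1 (43.1% ± 0.763), and 35.8% and 38.1% in the other quantification. Most of this came from Ttn-215, the fragment with 0 words of its own. Over Ttn-201 to Ttn-205 alone, a choice made after the data were seen, inclusion of the exon was 5.91% in replicate 2 and 6.15% in replicate 1 (6.03% ± 0.170), and 11.3% and 12.0% in the other quantification (11.6% ± 0.527).

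**Figure D3:**
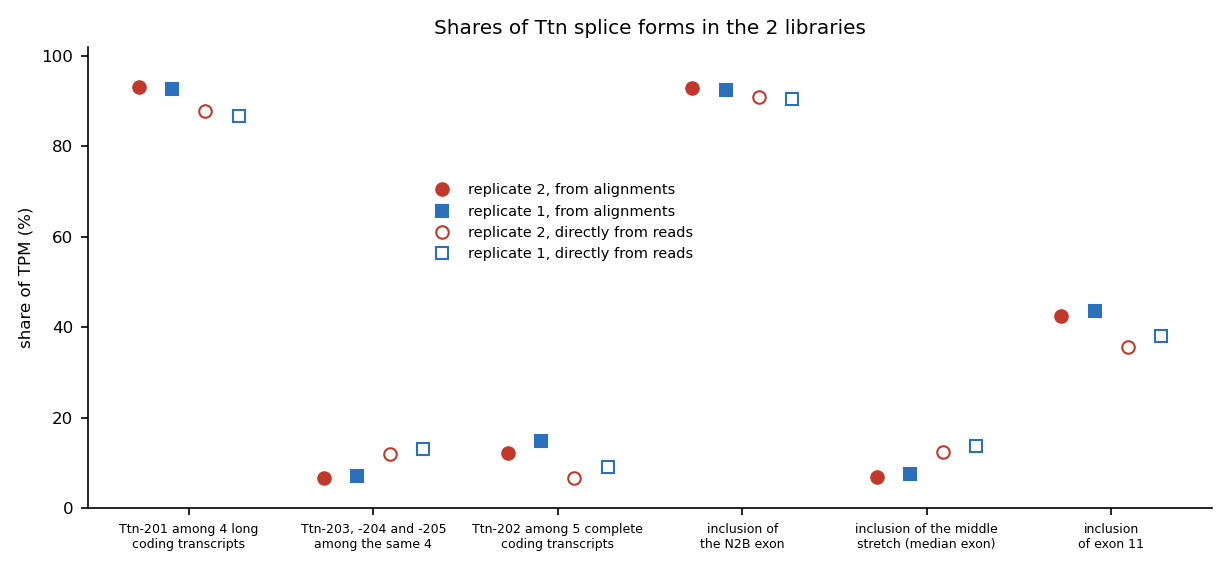
Share of TPM in percent for 3 groups of transcripts and for the inclusion of 3 splice choices, in replicate 2 (circles) and replicate 1 (squares), from alignments (filled) and directly from reads (open). Ttn-201 and the N2B exon lie between 86.8% and 93.3%. The median exon of the middle stretch and the complete long forms lie between 6.74% and 13.7%, and exon 11 lies between 35.8% and 43.7%.

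Within the middle stretch the computed inclusion was uneven. Exons held and spanned by the same transcripts take the same value by construction. Steps therefore fall where annotated transcripts start, end or skip exons, and Ttn-218 is a fragment with an open start. The first 26 of its exons, before the start of Ttn-218, all stood at 7.03% in replicate 2 and 7.49% in replicate 1. The 44 exons held by Ttn-218 had a median of 28.3% in replicate 2 and 30.8% in replicate 1, with a range of 23.9% to 36.1% and 26.6% to 39.5%. The 84 later exons that Ttn-218 skips had a median of 4.83% and 4.89%. The 33 exons absent from Ttn-204 and Ttn-205, which overlap these sets, had a median of 0.0044% in replicate 2 and 0.030% in replicate 1, and 2.64% and 3.15% in the other quantification. They reached 23.9% in replicate 2 and 26.6% in replicate 1 at exon 172, which Ttn-218 holds. The summed TPM of the exons in Ttn-218 had a median of 171 in replicate 2 and 153 in replicate 1, against 32.7 and 27.8 for the 26 exons before it.

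The shared parts of the gene also varied in summed TPM. Over the 44 exons of the 5′ part the sum ranged from 528 to 872 TPM in replicate 2 and from 436 to 732 TPM in replicate 1. Over the 146 exons of the 3′ part, which include an exon of 17106 bases, it ranged from 463 to 676 TPM in replicate 2 and from 370 to 568 TPM in replicate 1. At the 5′ end the upper values include Ttn-215. Of the 3′ exons, the upper values include the fragments that end in the first exons of that part.

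**Figure D4:**
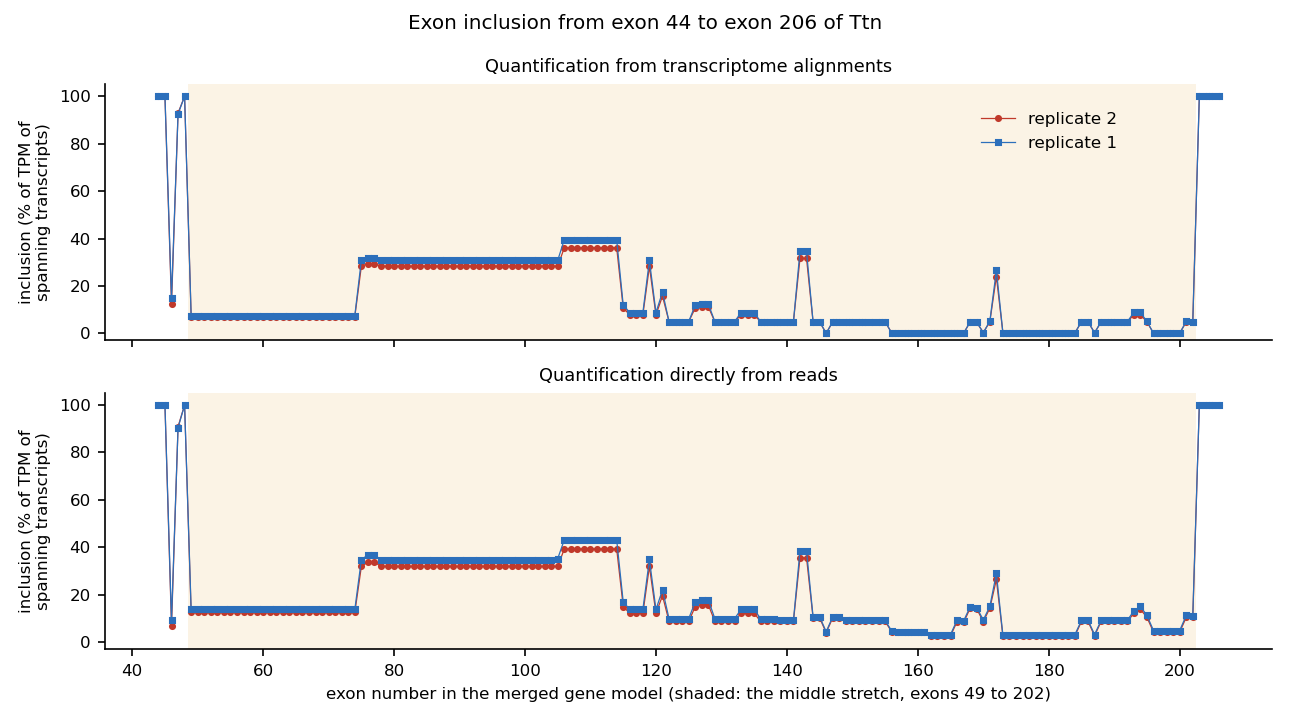
Inclusion of exons 44 to 206 in percent of the TPM of transcripts that span each exon, by exon number, in replicate 2 (red circles) and replicate 1 (blue squares), from alignments (top) and directly from reads (bottom); the middle stretch is shaded. Inclusion is 100% in the shared exons on either side, stays at 7.03% and 7.49% over the first 26 exons of the stretch in the top panel, and reaches 36.1% in replicate 2 and 39.5% in replicate 1 at its highest. Steps follow the annotated ends and exons of the transcripts.

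The libraries were then set against each other by scaled counts (expected counts scaled by TMM factors, with replicate 2 over replicate 1). With 1 library on each side no test was possible. The Ttn gene had a log2 ratio of 0.51 (exact 95% interval 0.511 to 0.518), a 1.43-fold higher value in replicate 2. The ratio on the TPM scale, an alternative added after seeing the data, was 0.22. Of 13213 genes with a mean of at least 50 counts, 3.84% had a ratio at or above that of Ttn, and the median of all of them was -0.01. Scaling by total counts shifted every log2 ratio by -0.09, so that positive ratios smaller than this become negative. In bulk tissue fewer cells of a type and less RNA per cell cannot be told apart.

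Marker lists of cell types went in both directions between the libraries. Of all 13213 genes with enough counts 6464 had a positive and 6749 a negative ratio, or 4088 and 9125 with total counts. The 9 cardiomyocyte markers were present in both libraries, and 8 of 9 had a positive ratio (median 0.16, or 6 of 9 with total counts). On the TPM scale each of the 9 was lower in replicate 2, and their summed level was 34389 TPM in replicate 2 and 36819 TPM in replicate 1. Of 6 atrial markers 5 were lower in replicate 2 by over 2-fold (median -2.02), against 1.02% of all genes with enough counts, with a summed level of 281 TPM in replicate 2 and 1513 TPM in replicate 1. The 6 adipocyte markers with enough counts were all lower, 5 of them by over 2-fold, and the 7 summed to 464 TPM in replicate 2 and 1085 TPM in replicate 1. Fibroblast markers had a median of -0.47 (6 of 6 lower, 1184 and 1881 TPM), smooth muscle markers -0.65 (4 of 4 lower, 195 and 310 TPM) and endothelial markers -0.08 (5 of 5 lower, 263 and 327 TPM). Their part in the ratio of Ttn was not tested. Skeletal muscle markers summed to 89.3 TPM in replicate 2 and 104 TPM in replicate 1, of which Acta1 gave 78.8 and 93.4 TPM, and the fast myosin gene Myh4 had 0 counts in both.

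Of the 25 transcripts, 16 had a mean of at least 50 counts, and all 16 had a positive ratio with an interval above 0 (median log2 ratio 0.36, against 0.01 over all transcripts). Over all 26049 transcripts with enough counts 51.7% had a positive ratio and 25.9% an interval above 0. The Ttn transcripts divide the reads of a gene whose total was itself higher in replicate 2, so they are not independent of each other. The share with an interval above 0 also depends on the number of counts. With total counts 15 of the 16 stayed positive, and Ttn-209 was at -0.0039. Past 2-fold, which also required an interval that leaves out no difference, was 1 of the 16, where 8.33% of 26049 transcripts were past 2-fold. This was Ttn-203, with 110 counts in replicate 2 and 0 in replicate 1. With replicate 1 set to a floor of 3 counts, it was 40.1-fold higher in replicate 2. That fold is not a lower limit, since the exact interval of the ratio starts below it. The deposited credibility bounds of TPM for Ttn-203 overlapped, with an upper bound of 0.075 TPM in replicate 2 and 0.092 TPM in replicate 1. In the other quantification Ttn-203 received 58899 counts in replicate 2, against 54851 in replicate 1, for a log2 ratio of 0.21, so the large ratio did not hold there. There 20 of 21 transcripts had a positive ratio, 14 of them with an interval above 0, against 50.9% and 25.4% of all 27470 transcripts. The exception was Ttn-213, which received 3.33 counts in replicate 2, against 449 in replicate 1, and so was the 1 member past 2-fold there, as were 8.61% of all transcripts, with a log2 ratio of -6.89 (-9.40 to -5.56); the first quantification gave it 0 counts in both libraries.

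Complete transcripts differed in their ratios by more than counting error in the first quantification. Ttn-201 was at 0.54 (0.539 to 0.547) and Ttn-204 at 0.52 (0.504 to 0.545), while Ttn-205 was at 0.36 (0.345 to 0.380) and Ttn-202 at 0.21 (0.185 to 0.229). The intervals of Ttn-201 and Ttn-202 lay far apart, and in the other quantification these ratios were 0.53 and 0.04. There Ttn-204 was at 0.45 (0.444 to 0.466). Ttn-205, with 81.2 counts in replicate 2 and 85.0 in replicate 1, was at 0.04 (-0.416 to 0.497), an interval that holds that of Ttn-204. In the first quantification the fragments Ttn-215 (0.44) and Ttn-218 (0.35) lay between Ttn-201 and Ttn-202, and the lowest ratio was that of Ttn-209 at 0.09 (0.0004 to 0.181).

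A single annotated gene overlaps Ttn, the antisense gene Gm13938 on the plus strand (76722776 to 76786708). It had 0 counts in both libraries and both quantifications, which allows up to 3 counts in each. The sources used here do not say whether counting was by strand. Gm13938 was also the only other gene to share words of 31 bases with Ttn, over 306 positions.

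Genes whose proteins bind titin, regulate splicing in muscle or are related to titin by their domains were then read against the same background, where 1.82% of 13213 genes were past 2-fold. Of 49 distinct partner genes 44 had enough counts, 29 of these had a positive ratio, the median was 0.05, and 0 were past 2-fold. With total counts 21 of the 44 had a positive ratio, at a median of -0.05. Of all 13213 genes 6464 had a positive ratio, at a median of -0.01. With total counts 4088 of them did, at a median of -0.10. The counts of positive ratios in the lists below stand beside these. The lists were written with knowledge of these data and are described by their counts.

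At the Z-disc, 7 of 8 ligands had a positive ratio (median 0.11), and 4 of 8 did with total counts (median 0.02). Telethonin (Tcap), which caps the N-terminus of titin, was at 264 TPM in replicate 2 and 196 TPM in replicate 1, with the highest ratio of the list at 0.64 (0.591 to 0.695). The actin crosslinker Actn2 stood at 830 TPM in replicate 2 and 916 TPM in replicate 1, the LIM protein gene Csrp3 at 649 and 668 TPM, and the Z-disc scaffold gene Ldb3 at 347 and 367 TPM. The lowest ratio was that of Ank1 at -0.09 (-0.154 to -0.030), whose small muscle form links the sarcoplasmic reticulum to the sarcomere. On the TPM scale Tcap was higher in replicate 2, as Ttn was, while Actn2, Csrp3 and Ldb3 were lower.

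Among I-band ligands 8 of 10 had enough counts, and 5 of the 8 had a negative ratio (median -0.11), or 7 of the 8 with total counts (median -0.21). Ankrd1, a stress-responsive protein that binds the N2A region, was at 69.5 TPM in replicate 2 and 131 TPM in replicate 1, with a ratio of -0.70 (-0.756 to -0.644). Fhl2, a LIM protein that binds the N2B region, was at 510 TPM in replicate 2 and 670 TPM in replicate 1 (-0.18). The chaperone gene Cryab, at 522 and 549 TPM, had the highest ratio of the list at 0.12 (0.081 to 0.159), and the small heat shock gene Hspb1 was at 110 and 127 TPM (0.01). The skeletal muscle members Ankrd2 and Capn3 had at most 2 and 32 counts in a library.

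In the A-band and M-band, all 9 ligands with enough counts had a positive ratio with an interval above 0 (median 0.19), where 20.8% of all genes had one. The same 9 of 9 was found with total counts (median 0.10), where 11.7% of all genes had such an interval. That share also depends on the number of counts, and each of the 9 had at least 4524 counts in a library. The alpha myosin heavy chain gene Myh6 was at 8333 TPM in replicate 2 and 8595 TPM in replicate 1, with a ratio of 0.17. The myosin-binding protein gene Mybpc3 was at 793 and 804 TPM (0.19), and Myh7, the beta myosin heavy chain of the fetal mouse heart, at 734 and 769 TPM (0.20). The autophagy receptor Nbr1, known as a ligand of the titin kinase domain, had the highest ratio at 0.79 (0.732 to 0.840), with 63.6 TPM in replicate 2 and 41.8 TPM in replicate 1, and its partner Sqstm1 the lowest at 0.16. The ratios of Myh6, Mybpc3 and Myh7 lay below that of Ttn by more than counting error. On the TPM scale the list went both ways. Myh6, Mybpc3, Myh7 and Sqstm1 were lower in replicate 2, while Nbr1 was higher. The whole list summed to 11027 TPM in replicate 2 and 11272 TPM in replicate 1.

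The splicing regulators were all present at 1 TPM or more, with 6 of 11 ratios positive (median 0.03). Rbm20 was at 111 TPM in replicate 2 and 107 TPM in replicate 1, and its ratio of 0.21 (0.173 to 0.246) was the highest of the list. Rbm24, which is known to promote inclusion of muscle exons, was at 114 and 118 TPM (0.18), and Qk, a splicing factor of muscle and glia, at 184 and 229 TPM (0.03). Ptbp1, the polypyrimidine tract repressor, was at 38.5 TPM in replicate 2 and 60.3 TPM in replicate 1 and had the lowest ratio at -0.37 (-0.455 to -0.290). Between the same libraries, inclusion of the N2B exon and median inclusion of the middle stretch differed by under 1 percentage point in the first quantification, while the median of the middle stretch was 12.5% in replicate 2 and 13.7% in replicate 1 in the other. With total counts 3 of 11 regulators had a positive ratio, at a median of -0.06.

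In the wider family of muscle proteins built from immunoglobulin or fibronectin domains, with nebulin added, 12 of 14 genes had enough counts and 7 had a positive ratio (median 0.12), or 6 with total counts (median 0.02). Mybpc3 led in level, and the cardiac nebulin relative Nebl was at 159 TPM in replicate 2 and 190 TPM in replicate 1 (0.04). The highest ratio was that of Mybpc2, the fast skeletal form, at 0.38 (0.233 to 0.522) with 7.63 and 6.81 TPM. Nebulin (Neb), the giant thin-filament protein of skeletal muscle, was at 0.80 TPM in replicate 2 and 2.14 TPM in replicate 1, with the lowest ratio at -0.80 (-1.01 to -0.58).

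**Figure D5:**
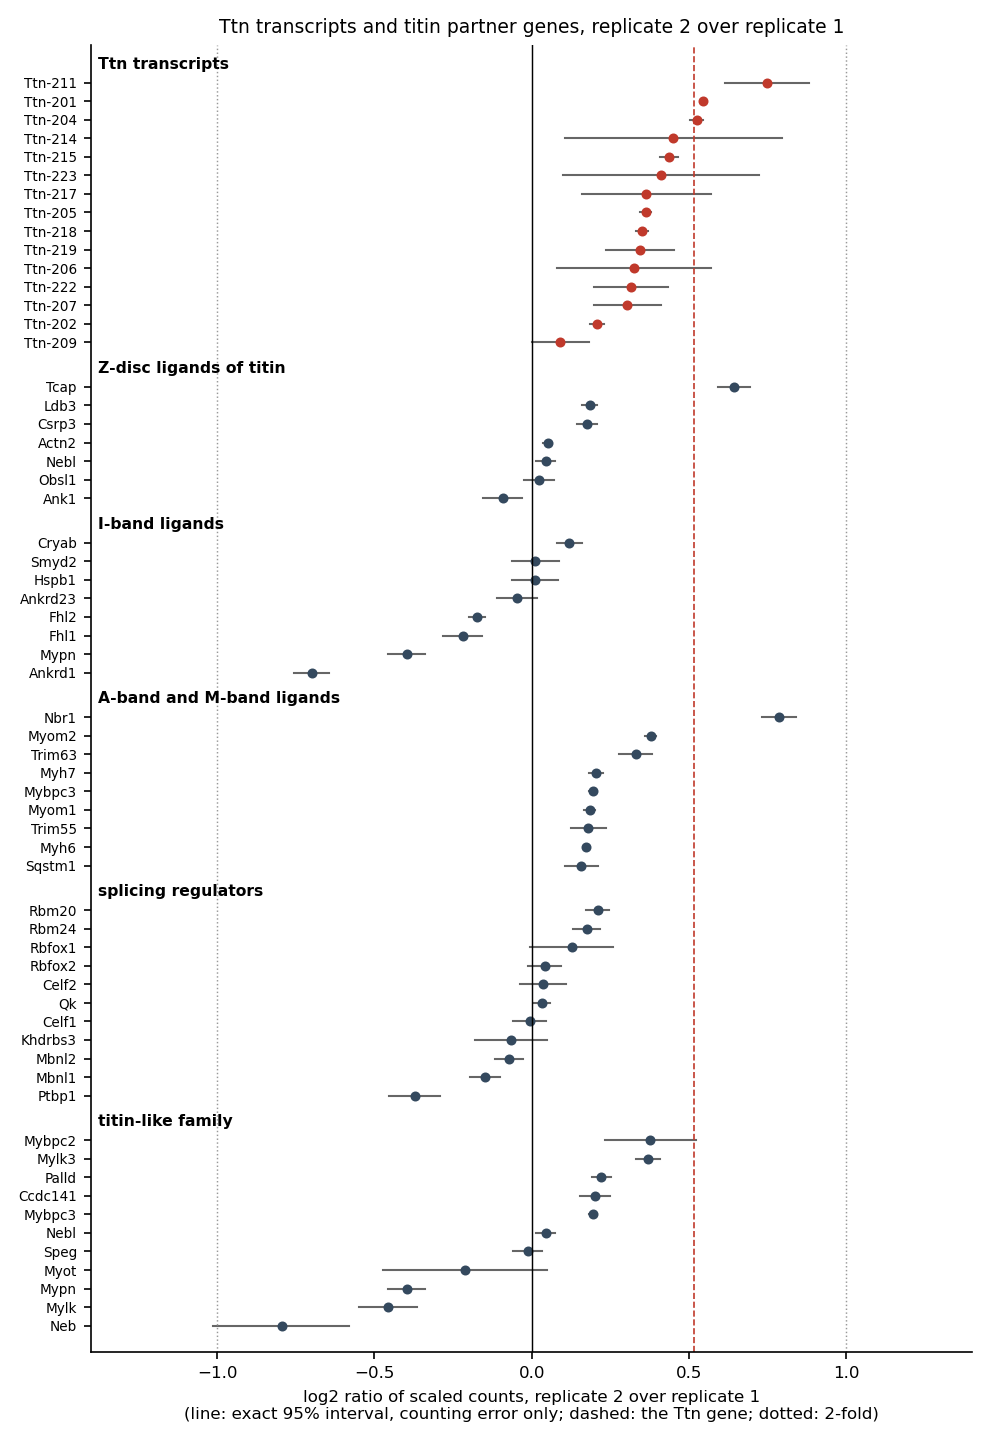
Log2 ratio of scaled counts, replicate 2 over replicate 1, for 15 Ttn transcripts (red) and the partner genes reported here by list (dark points), with exact 95% intervals that cover counting error only; Ttn-203, with 0 counts in replicate 1, is left out. All 15 transcripts lie above 0, Nbr1 (0.79) and Tcap (0.64) are the partner genes to the right of the dashed line of the Ttn gene (0.51), and Ankrd1 (-0.70) and Neb (-0.80) lie farthest to the left.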

How the data were processed

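Total RNA of 2 libraries of 1 group was compared. The build was mm10 and the annotation GENCODE M21, per the submitters' processing notes and file headers; program names and versions are not given in the sources used here. Expected counts, TPM and FPKM are the deposited values of the first gene and transcript tables, per the file headers, and expected counts can be fractions of reads. The other deposited transcript table holds estimated counts and TPM. Reads of CAST alleles were assigned to a B6-based reference.

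Here expected counts were rounded, scaled with edgeR 4.0.16 (TMM; R 4.3.3) and compared as log2 ratios with 0.5 added, at a mean count of at least 50, with exact 95% Clopper-Pearson intervals (scipy 1.17.1). Past 2-fold required a log2 ratio beyond 1 or -1 whose interval left out 0. DESeq2 1.42.0 size factors were an alternative. The ratio step was run on simulated counts with known changes and counting (Poisson) error only. That run checks the calculation and cannot speak to the spread of real libraries. Exon inclusion used transcript TPM and exon positions of GENCODE M21. All 11 splicing regulators matched a symbol, Qki through a RefSeq synonym (Qk).

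The members and lists were chosen with earlier results of these data known. Named were Ttn, its transcripts, overlapping genes, the 3 protein-coding neighbours in mean TPM on each side, and per list the 3 highest members, both ends of the ratios and all members past 2-fold, with Rbm20 and Tcap always. Acta1, Myh4, Ankrd2 and Capn3 were named after their values were seen. 1 list member that the rule names is not reported here. Replicates were taken from the labels.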

Additional observations from a re-analysis of the deposited data

How the results depend on the processing

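With total counts the ratios of all genes moved down together, to a median log2 ratio of -0.10 (-0.01 with TMM). Directions of some gene lists turned with this shift. The median of all partner genes was -0.05 (0.05 with TMM), that of the splicing regulators -0.06 (0.03), and Ttn-209 was at -0.0039 (0.09). For the Ttn level, ratio and shares and for the counts past 2-fold, 42 of 60 settings kept the value within the spread between the libraries (for the ratio, within its interval; for counts, within 1.5 times). For the level, shares and inclusion, leaving out 1 replicate keeps the value within that spread by construction. Those settings are among the 42 and are no check. The mean Ttn level of 1023 TPM was 833 as FPKM and 1382 TPM without spike-ins and mitochondrial genes, and 944 to 1101 TPM with 1 replicate left out. The log2 ratio of 0.51 was 0.50 with DESeq2 size factors, 0.42 with total counts, 0.46 with ERCC counts, 0.45 without mitochondrial genes, 0.53 with factors over all genes, 0.49 directly from reads and 0.22 on TPM. The mean share of Ttn-201, 37.8% of TPM, was 83.5% of expected counts and 93.0% among the 4 long coding transcripts (added after seeing the data), and 36.4% to 39.2% with 1 replicate left out. Median inclusion of the middle stretch, 7.26%, was 13.1% directly from reads, and 7.03% to 7.49% with 1 replicate left out. The number of transcripts at 1 TPM, 15, was 18 at 0.1 TPM, 13 at 5 TPM, 19 directly from reads and 15 without either replicate. At a mean count of at least 200 the transcripts past 2-fold numbered 0. The cause of these shifts was not tested. No partner gene was past 2-fold under any setting run. No paired analysis was possible because the libraries form 1 group. With 2 libraries, differences between them have no replicate check.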
